A study of Mus musculus with 16 samples.

Results

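The genes described here are 9 mouse genes whose products write methylation of lysine 9 on histone H3 (H3K9), bring a writer to its sites or read the mark. They are Setdb1, Trim28, Ehmt1, Ehmt2, Suv39h1 and Suv39h2, and the HP1 genes Cbx5, Cbx1 and Cbx3. They were chosen by name as the core of this pathway, with earlier results of these data known, and were found by their gene identifiers, 9 of the 54446 mouse identifiers counted. All 9 had counts in all 16 libraries and passed the filter on low counts.

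The series measured newly made RNA in C57BL/6 mouse embryonic stem cells (mESCs) labelled Mettl14 CKO or Mettl14 Control. METTL14 works with METTL3 in the enzyme that puts N6-methyladenosine on RNA, and CKO usually stands for conditional knockout. The series' title names METTL14 as a chromatin regulator, and the comparison of CKO with Control cells asks how newly made RNA differs without it. The 8 groups were CKO cells given 5-ethynyl uridine (EU) for 10, 20, 30 or 60 min and Control cells given EU for the same 4 times, with 2 libraries each. EU is a uridine analogue that enters RNA as it is made and allows that RNA to be pulled out by click chemistry. All groups shared a medium with serum, 1000 U/ml of the self-renewal factor LIF, 3 µM of the GSK3 inhibitor CHIR99021 and 1 µM of the MEK inhibitor PD0325901, and all received 0.5 mM EU 48 h after seeding. The sample labels give the molecule as total RNA and also describe it as nascent and polyA, so which fraction was sequenced is not settled here. Neither the Cre driver nor the number of clones was stated. No label states whether the 2 libraries of a group were grown separately, so every p-value here measures only the spread between these libraries, which may be technical. Since whole cultures were measured, less RNA made per cell and fewer cells making it cannot be told apart.

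Methylated H3K9 marks heterochromatin, the compact and mostly silent part of the genome. SETDB1 puts on the trimethyl mark at retroviral repeats in mESCs, where TRIM28 (KAP1) and KRAB zinc finger proteins bring it. EHMT1 (GLP) and EHMT2 (G9a) act as a pair and make mainly the mono- and dimethyl marks in gene-rich chromatin, while SUV39H1 and SUV39H2 make the trimethyl mark at the repeats around centromeres. The HP1 proteins HP1α (gene Cbx5), HP1β (Cbx1) and HP1γ (Cbx3) bind the methylated lysine through their chromodomain.

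On GRCm38.p6, the RefSeq patch level of the mm10 build, Setdb1 lies at chr3:95323525-95357202 (minus strand), Trim28 at chr7:13024152-13031032 (plus), Ehmt1 at chr2:24790769-24919643 (minus) and Ehmt2 at chr17:34898463-34914073 (plus). Suv39h1 lies at chrX:8061171-8074760 (minus), Suv39h2 at chr2:3455815-3474986 (minus), Cbx5 at chr15:103191546-103239904 (minus), Cbx1 at chr11:96788680-96808982 (plus) and Cbx3 at chr6:51470154-51483704 (plus). Several share their ground with a neighbour, which matters because whether counting used the strand was not given in the sources used here. Suv39h2 overlaps Dclre1c on the opposite strand over 18397 bases, Setdb1 overlaps the end of Cers2 by 75 bases, Trim28 overlaps Gm31649 by 438 bases, and the transcribed pseudogene Gm11517 lies within Cbx1 over 2825 bases. RefSeq also lists 6 pseudogenes named after Cbx3, so reads of Cbx3 may have been split or lost. The counts of these genes are uncertain to that extent.

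The start regions of 3 members are shown: Setdb1 and Cbx5 were the members called lower in CKO cells at 60 min, and Suv39h2 was the member called higher at 10 min. Ehmt1 and Cbx3, called lower at 10 min, are not among them. Each line is RefSeq sequence, 5′ to 3′ on the gene's own strand, and capitals mark the motifs searched.
Setdb1, 250 bases before the start, chr3:95357203-95357452, minus strand: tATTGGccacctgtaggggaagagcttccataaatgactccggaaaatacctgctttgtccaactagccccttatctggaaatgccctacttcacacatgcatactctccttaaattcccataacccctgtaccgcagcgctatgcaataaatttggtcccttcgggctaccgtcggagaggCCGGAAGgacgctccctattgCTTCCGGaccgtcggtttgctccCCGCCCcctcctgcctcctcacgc
Suv39h2, 250 bases before the start, chr2:3474987-3475236, minus strand: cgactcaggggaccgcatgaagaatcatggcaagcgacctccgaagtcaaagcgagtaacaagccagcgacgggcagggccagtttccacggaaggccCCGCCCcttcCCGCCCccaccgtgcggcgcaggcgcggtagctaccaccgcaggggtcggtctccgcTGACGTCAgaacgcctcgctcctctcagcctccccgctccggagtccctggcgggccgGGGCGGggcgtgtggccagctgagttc
Cbx5, the whole 38 bases between its start and that of the divergent gene Hnrnpa1, chr15:103239905-103239942, minus strand: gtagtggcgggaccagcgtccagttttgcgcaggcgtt
The motifs, searched on both strands, were an ETS core (CCGGAAG, in 6.91% of 32851 RefSeq windows of the same length), the GC box (GGGCGG, 32.7%), the cyclic AMP response element (TGACGTCA, 1.55%), the CCAAT box (CCAAT, 33.8%), the TATA box (TATAAA, 12.4%) and the E-box (CACGTG, 6.02%). The Setdb1 window held 2 ETS cores, 1 GC box and 1 CCAAT box, and the Suv39h2 window held 3 GC boxes and 1 cyclic AMP response element. The GC content was 54.4% with 13 CpG in the Setdb1 window and 69.6% with 27 CpG in the Suv39h2 window, against a median of 52.4% and 6 CpG over all windows. None of the motifs was found in the 38 bases at Cbx5, a stretch much shorter than the 250 bases searched for the other 2 genes. The first 250-base window of Cbx5, which includes those 38 bases, held 2 GC boxes, 1 CCAAT box and 1 E-box. Its second window held 1 GC box. A match or its absence here is a description of letters only.

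The libraries held 5109162 to 26557342 mouse counts in CKO and 12883425 to 28502750 in Control cells. The 2 CKO libraries of 30 min stood apart. They were the shallowest, at 5188643 and 5109162 counts, yet detected 30583 and 31826 identifiers where no other library passed 26857, and their TMM scaling factors were 1.22 and 1.24 where all others lay between 0.912 and 1.01. Results that rest on them are given with and without the 30 min libraries. In the shallowest case a member still had 100 counts (Suv39h2 in the first CKO library of 30 min). Levels are CPM, a gene's share of the mouse counts of its library, without the TMM factor that edgeR's differences include. The order of the libraries differed between plain and TMM-scaled CPM in 5 of the 36 pairings of a gene and an EU time, each named beside its gene. CPM values are not divided by gene length and are compared only within a gene.

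In the fit over all 4 EU times with TMM scaling, 2 of the 9 genes were lower in CKO cells and none was higher. They were Setdb1, the methyltransferase of retroviral heterochromatin, and Cbx3, which encodes HP1γ. This fit gives 1 difference per gene over the EU times and does not show a difference at each time. The test was edgeR's quasi-likelihood test with Benjamini-Hochberg adjustment over all 27488 identifiers tested, with EU time as a term. By the same rule 11.5% of all identifiers tested differed in either direction and 4.7% were lower in CKO. Among the 9483 identifiers with at least 10 CPM on average, the range in which all members lie, 18.9% differed and 12.9% were lower. The median difference of the 9 genes was -0.30 on the log2 scale, against 0.19 over all identifiers and -0.10 over those of at least 10 CPM. Without the 30 min libraries 1 of the 9 was lower, Setdb1, where 22.9% of identifiers of at least 10 CPM differed and 10.9% were lower, and the members' median was -0.15 against -0.02. With totals of added ERCC RNA as library sizes, described below, 0 of the 9 were called, where 8.98% of such identifiers were.

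**Figure D1:**
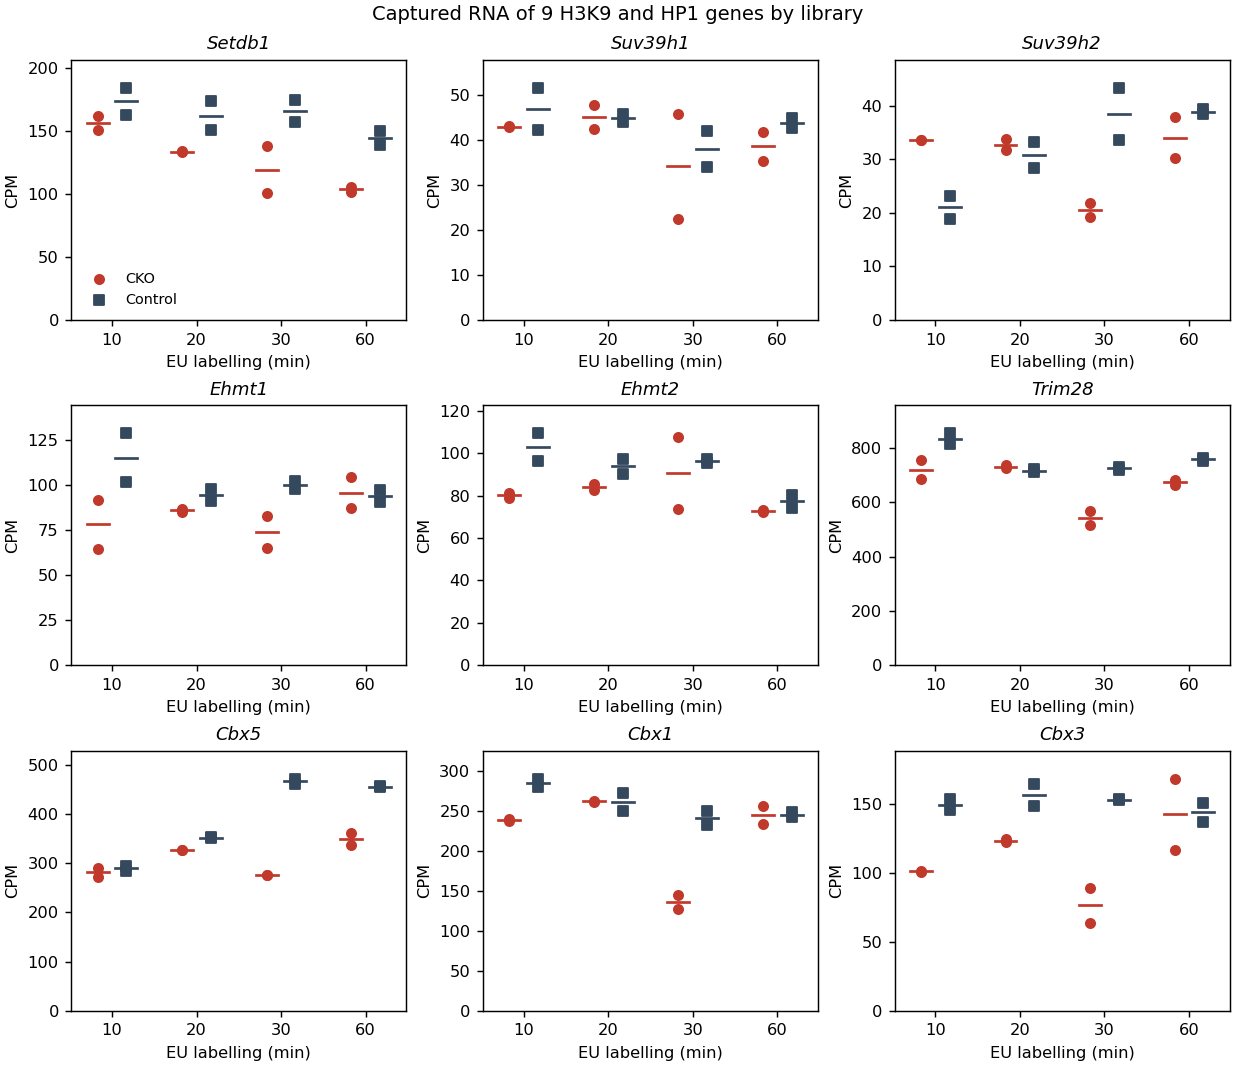
CPM, without TMM scaling (vertical axis, from 0) of each of the 9 genes in every library by minutes of EU labelling (horizontal axis, evenly spaced categories). Red circles are CKO and dark squares Control libraries, and the short lines are means of 2 libraries. On this scale Setdb1 lies lower in both CKO than in both Control libraries at each EU time, although its groups overlap at 10 min after TMM scaling, whereas Suv39h2 lies higher in CKO at 10 min and lower at 30 min.

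Setdb1 was lower in CKO cells in the fit over all EU times with TMM scaling. Both CKO libraries were below both Control libraries at 20, 30 and 60 min whether or not CPM were scaled by TMM. Setdb1 (ENSMUSG00000015697.14) had 162 and 150.3 CPM in CKO against 163 and 184 CPM in Control libraries at 10 min, and 134 and 133 CPM in CKO against 150.3 and 173 CPM in Control libraries at 20 min. It had 100.4 and 138 CPM in CKO against 157 and 175 CPM in Control libraries at 30 min, and 102 and 106 CPM in CKO against 150.1 and 139 CPM in Control libraries at 60 min. In plain CPM the nearest libraries of the genotypes almost met at 10 min and were furthest apart at 60 min. After TMM scaling the groups overlapped at 10 min, with 166 and 159 TMM-scaled CPM in CKO against 160.2 and 183 in Control libraries. Setdb1 averaged 128 ± 23.1 CPM in CKO and 161 ± 15.2 CPM in Control libraries (SD, n = 8 each), a log2 difference of -0.38 ± 0.10 (SE, adjusted p = 0.0217) in edgeR's fit over all EU times. Without the 30 min libraries the difference was -0.28 ± 0.07 (SE, adjusted p = 0.0146). By time it was -0.078 ± 0.12 (SE, adjusted p = 0.791) at 10 min, -0.28 ± 0.12 (SE, adjusted p = 0.556) at 20 min and -0.43 ± 0.12 (SE, adjusted p = 0.0451) at 60 min. The difference at 60 min passed edgeR's threshold in the full fit and was lost when the first CKO library or either Control library of 60 min was left out, with an adjusted p of up to 0.363. The overall difference was called with each of the 16 libraries left out in turn, with edgeR's adjusted p between 0.0113 and 0.0371.

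Trim28, the scaffold that brings SETDB1 to its sites, passed the threshold at 30 min alone. Trim28 (ENSMUSG00000005566.14) had 684 and 754 CPM in CKO against 812 and 853 CPM in Control libraries at 10 min, and 735 and 726 CPM in CKO against 709 and 720.0 CPM in Control libraries at 20 min. It had 517 and 567 CPM in CKO against 729 and 719 CPM in Control libraries at 30 min, and 662 and 683 CPM in CKO against 762 and 752 CPM in Control libraries at 60 min. The CKO libraries were the lower ones at 10, 30 and 60 min and the higher ones, by a small margin, at 20 min. Trim28 averaged 666 ± 83.4 CPM in CKO and 757 ± 50.9 CPM in Control libraries (SD, n = 8 each), with an overall log2 difference of -0.23 ± 0.10 (SE, adjusted p = 0.129) by edgeR. It was -0.09 ± 0.06 (SE, adjusted p = 0.361) without the 30 min libraries. Its log2 difference at 30 min was -0.70 ± 0.07 (SE, adjusted p = 3.86e-08).

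Ehmt1 and Ehmt2 encode the paired G9a-type enzymes, and Ehmt1 was lower in CKO cells at 10 min. Ehmt1 (ENSMUSG00000036893.17) had 91.7 and 64.4 CPM in CKO against 129 and 102 CPM in Control libraries at 10 min, and 86.8 and 84.9 CPM in CKO against 91.1 and 98.0 CPM in Control libraries at 20 min. It had 83.1 and 64.8 CPM in CKO against 98.0 and 102 CPM in Control libraries at 30 min, and 104 and 87.2 CPM in CKO against 97.0 and 90.7 CPM in Control libraries at 60 min. Both CKO libraries were below both Control libraries at 10, 20 and 30 min, and the groups overlapped at 60 min. The log2 difference of Ehmt1 was -0.49 ± 0.14 (SE, adjusted p = 0.0262) at 10 min by edgeR. The call was lost without the first Control library of 10 min, at -0.33 with an adjusted p of 0.294, and without the second CKO library, at -0.29 with an adjusted p of 0.321. At 60 min it was 0.077 ± 0.14 (SE, adjusted p = 1). Over all EU times it was -0.31 ± 0.12 (SE, adjusted p = 0.0743) by edgeR, and -0.19 ± 0.10 (SE, adjusted p = 0.244) without the 30 min libraries.

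Ehmt2 passed the threshold at 30 min alone in the fit of all 16 libraries, a call that most other settings ended. Ehmt2 (ENSMUSG00000013787.15) had 79.1 and 81.3 CPM in CKO against 96.5 and 109 CPM in Control libraries at 10 min, and 85.6 and 82.8 CPM in CKO against 97.4 and 90.3 CPM in Control libraries at 20 min. It had 73.6 and 108 CPM in CKO against 95.3 and 97.3 CPM in Control libraries at 30 min, and 73.1 and 72.1 CPM in CKO against 74.2 and 80.3 CPM in Control libraries at 60 min. The CKO libraries were below the Control libraries at 10, 20 and 60 min and overlapped them at 30 min, where the 2 CKO libraries lay on either side of both Control libraries in plain CPM. After TMM scaling both CKO libraries were the lower ones at 30 min, with 60.1 and 86.6 TMM-scaled CPM in CKO against 95.5 and 97.4 in Control libraries, and the groups overlapped at 60 min, with 78.7 and 79.0 TMM-scaled CPM in CKO against 77.6 and 84.4 in Control libraries. The log2 difference of Ehmt2 was -0.29 ± 0.13 (SE, adjusted p = 0.174) at 10 min with all 16 libraries and -0.32 ± 0.10 (SE, adjusted p = 0.0303) without those of 30 min, so it passed edgeR's threshold only in the second fit. At 30 min it was -0.37 ± 0.13 (SE, adjusted p = 0.0262), and -0.12 with an adjusted p of 0.500 without the first CKO library of 30 min. The call was also lost with median-of-ratios factors, plain totals, ERCC scaling, DESeq2, the stricter filter and no filter, at log2 differences between -0.51 and -0.042 with adjusted p-values of 0.0544 to 0.821. Over all EU times it was -0.21 ± 0.09 (SE, adjusted p = 0.13) by edgeR, and -0.17 ± 0.07 (SE, adjusted p = 0.13) without the 30 min libraries.

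Suv39h1 and Suv39h2 encode the enzymes of pericentromeric heterochromatin, and for Suv39h1 no difference between genotypes passed edgeR's threshold at any EU time. Suv39h1 (ENSMUSG00000039231.18) had 42.8 and 43.1 CPM in CKO against 42.2 and 51.5 CPM in Control libraries at 10 min, and 47.7 and 42.3 CPM in CKO against 45.8 and 44.1 CPM in Control libraries at 20 min. It had 45.7 and 22.5 CPM in CKO against 34.1 and 42.1 CPM in Control libraries at 30 min, and 35.4 and 41.7 CPM in CKO against 42.6 and 44.9 CPM in Control libraries at 60 min. The groups overlapped at 10, 20 and 30 min, and both CKO libraries were slightly below both Control libraries at 60 min, where TMM scaling made them overlap, with 38.1 and 45.8 TMM-scaled CPM in CKO against 44.6 and 47.2 in Control libraries. Its overall log2 difference was -0.15 ± 0.12 (SE, adjusted p = 0.447) by edgeR and -0.076 ± 0.09 (SE, adjusted p = 0.641) without the 30 min libraries, and the widest spread was between the 2 CKO libraries of 30 min, which held 237 and 115 counts.

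Suv39h2 was the only member called higher in CKO cells at 10 min with TMM scaling. Suv39h2 (ENSMUSG00000026646.16) had 33.6 and 33.6 CPM in CKO against 23.1 and 18.9 CPM in Control libraries at 10 min, and 33.7 and 31.7 CPM in CKO against 33.2 and 28.4 CPM in Control libraries at 20 min. It had 19.3 and 21.9 CPM in CKO against 43.3 and 33.5 CPM in Control libraries at 30 min, and 30.2 and 37.9 CPM in CKO against 38.4 and 39.4 CPM in Control libraries at 60 min. The 2 CKO libraries of 10 min were nearly alike and lay above both Control libraries, the groups overlapped at 20 min, and the CKO libraries were lower at 30 min. At 60 min they were lower in plain CPM and overlapped the Control libraries after TMM scaling, with 32.5 and 41.5 TMM-scaled CPM in CKO against 40.1 and 41.4 in Control libraries. The log2 difference was 0.75 ± 0.19 (SE, adjusted p = 0.00865) at 10 min by edgeR, a 1.69-fold level, and 0.72 ± 0.17 (SE, adjusted p = 0.00507) without the 30 min libraries. It was 0.086 ± 0.19 (SE, adjusted p = 1) at 20 min and -0.14 ± 0.18 (SE, adjusted p = 1) at 60 min. Without the second Control library of 10 min the difference at 10 min was no longer called, with an adjusted p of 0.109. Since Dclre1c covers nearly the whole of Suv39h2 on the other strand, the part of that gene's RNA in these counts was not tested.

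Of the HP1 genes, Cbx5 (HP1α) was lower in CKO cells at 30 and 60 min and passed no threshold at 10 or 20 min. Cbx5 (ENSMUSG00000009575.14) had 291 and 272 CPM in CKO against 285 and 295 CPM in Control libraries at 10 min, and 326 and 327 CPM in CKO against 353 and 352 CPM in Control libraries at 20 min. It had 276 and 276 CPM in CKO against 472 and 461 CPM in Control libraries at 30 min, and 338 and 361 CPM in CKO against 454 and 457 CPM in Control libraries at 60 min. The groups overlapped at 10 min, and from 20 min on both CKO libraries were below both Control libraries. The log2 difference of Cbx5 was 0.033 ± 0.08 (SE, adjusted p = 0.938) at 10 min, -0.11 ± 0.08 (SE, adjusted p = 0.922) at 20 min and -0.33 ± 0.08 (SE, adjusted p = 0.0137) at 60 min by edgeR. At 60 min the level in CKO was 0.796 times that in Control libraries. As for Setdb1, the call at 60 min was lost without the first CKO library or either Control library of that time, with an adjusted p of up to 0.194. Over all EU times Cbx5 had a log2 difference of -0.36 ± 0.12 (SE, adjusted p = 0.0521), just outside the threshold, and -0.15 ± 0.06 (SE, adjusted p = 0.134) without the 30 min libraries.

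Cbx3 (HP1γ) was lower in CKO cells at 10 and 30 min and in the fit over all EU times. Cbx3 (ENSMUSG00000029836.15) had 100.5 and 102 CPM in CKO against 154 and 145 CPM in Control libraries at 10 min, and 122 and 124 CPM in CKO against 149 and 164 CPM in Control libraries at 20 min. It had 63.6 and 89.3 CPM in CKO against 153 and 153 CPM in Control libraries at 30 min, and 168 and 116 CPM in CKO against 151 and 137 CPM in Control libraries at 60 min. The CKO libraries were below the Control libraries at 10, 20 and 30 min, whereas at 60 min one CKO library was above and the other below both Control libraries. The log2 difference of Cbx3 was -0.49 ± 0.13 (SE, adjusted p = 0.0159) at 10 min, -0.34 ± 0.13 (SE, adjusted p = 0.463) at 20 min and 0.031 ± 0.13 (SE, adjusted p = 1) at 60 min by edgeR. Over all EU times it was -0.51 ± 0.14 (SE, adjusted p = 0.0237), and without the 30 min libraries -0.28 ± 0.10 (SE, adjusted p = 0.0591), which did not pass the threshold. At 10 min the call was lost without the first CKO library or either Control library of 10 min, with an adjusted p of up to 0.0778.

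Cbx1 (HP1β) was lower in CKO cells at 30 min alone in the fit of all 16 libraries. Cbx1 (ENSMUSG00000018666.13) had 239.7 and 238 CPM in CKO against 291 and 281 CPM in Control libraries at 10 min, and 263 and 262 CPM in CKO against 273 and 249.8 CPM in Control libraries at 20 min. It had 128 and 144 CPM in CKO against 250.3 and 233 CPM in Control libraries at 30 min, and 235 and 257 CPM in CKO against 243 and 249 CPM in Control libraries at 60 min. Both CKO libraries were below both Control libraries at 10 and 30 min, and the groups overlapped at 20 and 60 min. The log2 difference was -0.18 ± 0.09 (SE, adjusted p = 0.197) at 10 min with all libraries and -0.22 ± 0.08 (SE, adjusted p = 0.0453) without those of 30 min by edgeR. Over all EU times it was -0.30 ± 0.13 (SE, adjusted p = 0.12), and -0.057 ± 0.06 (SE, adjusted p = 0.63) without the 30 min libraries.

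By EU time, 3 of the 9 genes differed at 10 min, none at 20 min, 8 at 30 min and 2 at 60 min in the fit of all 16 libraries. Of all identifiers tested 11.8% differed at 10 min, 0.96% at 20 min, 48.5% at 30 min and 2.63% at 60 min. At 10 min Ehmt1 and Cbx3 were lower and Suv39h2 was higher in CKO, where 28% of identifiers of at least 10 CPM differed, 12.3% being lower and 15.6% higher, and without the 30 min libraries 5 members did, where 36.2% differed. Ehmt2 and Cbx1 were the members added, both lower. The calls at 10 min turned on single libraries: 1 to 4 members were called with a library left out, only Suv39h2 without the first Control library of 10 min and only Ehmt1 without the second. At 20 min edgeR called 0 members with all libraries and 0 without those of 30 min, 2 had an unadjusted p below 0.05 in each fit, and DESeq2 called 0. By edgeR 2.75% of identifiers of at least 10 CPM differed at 20 min (3.93% without the 30 min libraries). At 60 min Setdb1 and Cbx5 were lower, where 7.43% of such identifiers differed and 2.44% were lower. The same pair was called without the 30 min libraries, where 10.2% differed.

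At 30 min every member but Suv39h1 was lower in CKO by edgeR's test. The log2 differences ran between -0.37 for Ehmt2 (SE 0.13, adjusted p = 0.0262) and -1.29 for Cbx3 (SE 0.14, adjusted p = 7.97e-08). Trim28 had -0.70, Ehmt1 -0.72, Setdb1 -0.76, Cbx5 -1.04, Cbx1 -1.11 and Suv39h2 -1.18 on the same scale, and the highest of their adjusted p-values by edgeR was 0.00049, for Ehmt1. Suv39h1 had -0.44 ± 0.22 (SE, adjusted p = 0.0934). Of all identifiers of at least 10 CPM, 57.1% differed and 50.3% were lower in CKO at 30 min, and the members' median was -0.76 against -0.44 over those identifiers and 0.61 over all identifiers tested. This comparison rests wholly on the 2 CKO libraries that stood apart in depth, detection and scaling, and the part of those features in it was not tested.

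**Figure D2:**
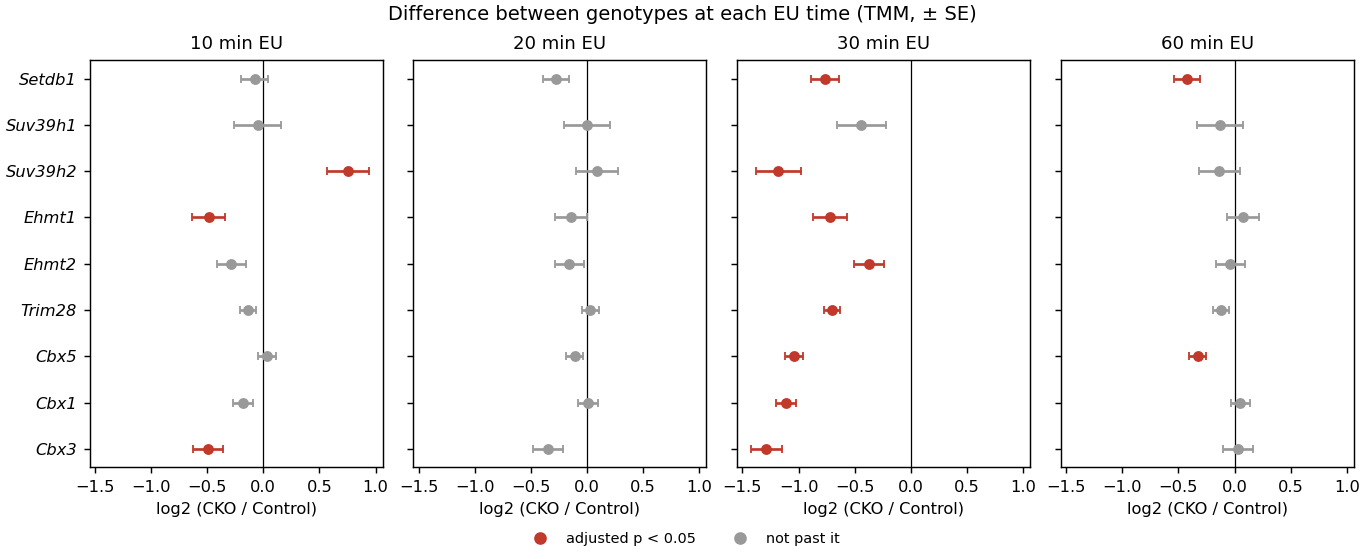
Log2 difference of each gene (rows) between CKO and Control at each EU time (panels), with bars of 1 SE from edgeR's fit of all 16 libraries. Red points passed an adjusted p of 0.05, and points left of the line at 0 are lower in CKO. At 30 min 8 genes are red, against 3 at 10 min, none at 20 min and 2 at 60 min.

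Whether the difference changed with EU time was tested by an interaction term. In the fit of all 16 libraries 7 of the 9 genes passed, all but Ehmt2 and Suv39h1, where 22.7% of all identifiers and 46.3% of those of at least 10 CPM passed. Without the 30 min libraries 0 of the 9 passed by edgeR, 4 had an unadjusted p below 0.05, and 10.9% of such identifiers passed. DESeq2's likelihood ratio test on all libraries called 5, and its share over all identifiers is not given here. With ERCC totals as library sizes edgeR called all 9 with all libraries, where 81.7% of identifiers of at least 10 CPM passed, and all 9 without those of 30 min, where 85.4% did. With TMM scaling the lowest adjusted p without 30 min was 0.0678, for Suv39h2.

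Within each genotype, the share of a gene in the captured RNA between 10 and 60 min of labelling was compared. In CKO cells Setdb1 fell, by edgeR's test with a log2 change of -0.53 ± 0.12 (SE, adjusted p = 0.00168), while Cbx5 rose by 0.37 ± 0.08 (SE, adjusted p = 0.000762) and Cbx3 by 0.55 ± 0.13 (SE, adjusted p = 0.00438). In the same comparison 15.2% of all identifiers changed, as did 38% of those of at least 10 CPM, 23.3% rising and 14.6% falling. The rise of Cbx3 rested on the first CKO library of 60 min, with 168 CPM against 116 CPM in the second, and was 0.29 with an adjusted p of 0.243 without it. The same 3 genes were called without the 30 min libraries, where 45.4% of identifiers changed.

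In Control cells Cbx5 rose by 0.74 ± 0.08 (SE, adjusted p = 1.46e-07) and Suv39h2 by 0.97 ± 0.19 (SE, adjusted p = 0.000699) on the log2 scale by edgeR, where 10.1% of all identifiers and 25.4% of those of at least 10 CPM changed, 18.7% of those rising. Setdb1 changed by -0.18 ± 0.12 (SE, adjusted p = 0.403) and Suv39h2 in CKO cells by 0.081 ± 0.19 (SE, adjusted p = 0.905), neither past the threshold. Without the 30 min libraries Ehmt2 was called too, at -0.38 ± 0.10 (SE, adjusted p = 0.0119), where 32.9% changed. The difference between these changes, CKO minus Control, was tested directly. With all libraries edgeR called 0 of the 9, 5 had an unadjusted p below 0.05, and DESeq2 called 2, Suv39h2 and Cbx5. The background by edgeR was 2.51% of all identifiers and 6.82% of those of at least 10 CPM, and that of DESeq2 is not given here. For Suv39h2 the difference of changes was -0.89 ± 0.26 (SE, adjusted p = 0.0738) with all libraries and -0.86 ± 0.23 (SE, adjusted p = 0.0346) without those of 30 min, the only member past the threshold there, where 10.8% of identifiers passed. The count of 0 moved with single libraries and with the settings: it was 4 without either CKO library of 30 min (Ehmt1, Suv39h2, Cbx5 and Cbx3), 3 without the second CKO library of 60 min (Suv39h2, Cbx5 and Cbx3) and 1 without the first CKO library of 10 min (Ehmt1). For Cbx5 it was -0.36 ± 0.11 (SE, adjusted p = 0.0737) with all libraries by edgeR.

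All of these values are shares of a library. A spike-in gives another scale: 0.01 µl of ERCC RNA per sample went in after capture and ahead of library making, so that member counts per 1000 ERCC counts carry differences in cell number, recovery and capture together with differences in labelled RNA. On this scale Setdb1 had 4.62 and 5.16 in CKO against 1.88 and 2.26 in Control libraries at 10 min, and 8.10 and 7.88 in CKO against 6.84 and 7.84 in Control libraries at 20 min. It had 8.19 and 6.53 in CKO against 12.5 and 14.8 in Control libraries at 30 min, and 13.0 and 16.3 in CKO against 19.9 and 18.2 in Control libraries at 60 min. Setdb1 was thus higher in both CKO libraries at 10 and 20 min and lower in both at 30 and 60 min. Suv39h2 had 0.960 and 1.15 in CKO against 0.267 and 0.232 in Control libraries at 10 min, and 3.85 and 5.85 in CKO against 5.09 and 5.16 in Control libraries at 60 min, where the groups overlapped. Cbx5 had 8.31 and 9.34 in CKO against 3.29 and 3.61 in Control libraries at 10 min, and 43.1 and 55.9 in CKO against 60.2 and 59.9 in Control libraries at 60 min. At 10 min the CKO libraries were higher for every member on this scale. ERCC counts made up 3.38% and 2.83% of mouse and ERCC counts in CKO against 7.97% and 7.54% in Control libraries at 10 min. At 60 min they made up 0.778% and 0.643% in CKO against 0.749% and 0.757% in Control libraries. The reason for the difference at 10 min was not tested.

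With ERCC totals as library sizes, edgeR called all 9 members higher in CKO at 10 min, with log2 differences between 0.82 (Ehmt1) and 2.08 (Suv39h2), where 90.6% of identifiers of at least 10 CPM were higher. The median of all such identifiers at 10 min was 1.33 with ERCC scaling against 0.0089 with TMM. The change of scaling moves every gene at 10 min by nearly the same amount. That Ehmt1 and Cbx3 stayed below the median and Suv39h2 above it was thus fixed in advance and adds nothing to the TMM result. The scaling also turned the direction of the overall differences. With ERCC totals 0 of the 9 were called over all EU times, 0 had an unadjusted p below 0.05, and 8.98% of identifiers of at least 10 CPM were called. At 60 min edgeR also called 0 with ERCC totals, where 0 had an unadjusted p below 0.05 and only 0.127% of such identifiers were called. DESeq2 was run with its own size factors only. Without the 30 min libraries the overall values with ERCC scaling were all positive, between 0.31 (Cbx3) and 0.81 (Suv39h2), against a median of 0.58 over identifiers of at least 10 CPM. Suv39h2 and Cbx1 were called higher there, where 47.3% of such identifiers were. With all 16 libraries Setdb1 had 0.016 ± 0.25 (SE, adjusted p = 0.972) and Cbx3 -0.10 ± 0.26 (SE, adjusted p = 0.811) on the ERCC scale.

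**Figure D3:**
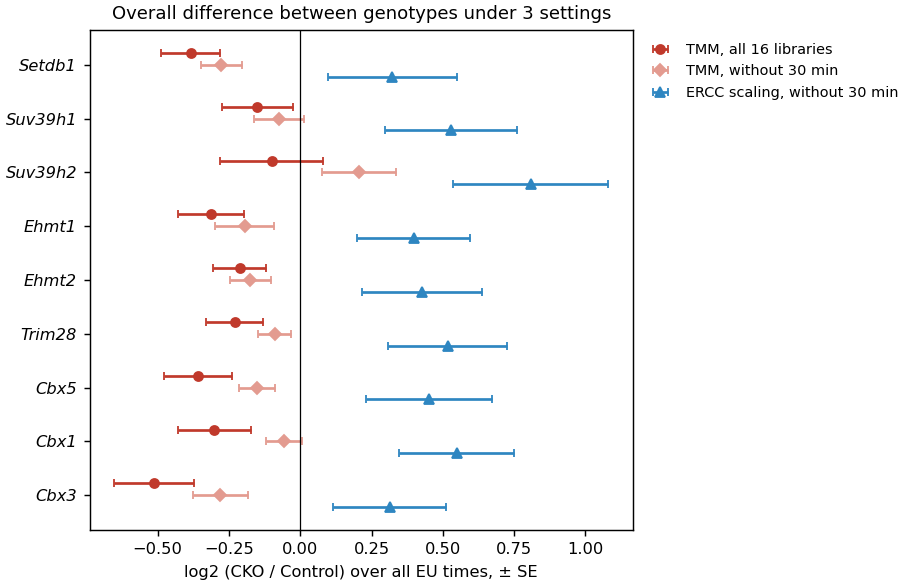
Log2 difference between CKO and Control over all EU times for each gene (rows), with bars of 1 SE from edgeR, under 3 settings: TMM with all 16 libraries, TMM without the 30 min libraries, and ERCC totals as library sizes without the 30 min libraries. Setdb1 stays left of 0 under both TMM settings and lies at 0.32 with ERCC scaling, and every gene is right of 0 with ERCC scaling.

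Per spike-in all 9 genes were higher at 60 than at 10 min in both genotypes. In Control cells the mean of each was higher at every later time than at the one before. In CKO cells the mean of 8 of the 9, all but Ehmt2, was lower at 30 than at 20 min, which rests on the 2 CKO libraries of 30 min that stood apart. The share of all identifiers that were lower at this step was not computed, so the count is not shown to be particular to these genes. Cbx1 had a CKO mean of 8.63 ± 2.51 at 30 min and 15.7 ± 0.235 at 20 min, and Suv39h2 one of 1.31 ± 0.376 at 30 min and 1.96 ± 0.106 at 20 min (SD, n = 2 each). The ratio of the 60 min mean to the 10 min mean was 3.00 in CKO and 9.20 in Control cells for Setdb1, 4.60 in CKO and 20.5 in Control cells for Suv39h2, and 5.61 in CKO and 17.4 in Control cells for Cbx5. With ERCC scaling edgeR called the rise of all 9 genes in CKO, where 98.6% of identifiers of at least 10 CPM rose, and of all 9 in Control, where 99.9% rose. The rise on the log2 scale was smaller in CKO than in Control for all 9, and the difference passed edgeR's threshold for 7, where it did so for 72.2% of such identifiers. Ehmt1, at -0.71 ± 0.36 (SE, adjusted p = 0.143), and Cbx3, at -0.78 ± 0.32 (SE, adjusted p = 0.0583), missed it. Suv39h2 differed most, at -2.16 ± 0.39 (SE, adjusted p = 0.000213), and Setdb1 differed by -1.62 ± 0.32 (SE, adjusted p = 0.000423). The median of those identifiers was -1.31 and that of the members -1.27, close to each other. Without the 30 min libraries all 9 were called, where 89.6% were.

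By slope, Setdb1 had the lowest ratio of CKO to Control of the 9 genes. A straight line through the levels of each genotype, in counts per 1000 ERCC counts per minute of EU, had a slope of 0.187 ± 0.0285 in CKO and 0.326 ± 0.0454 in Control cells for Setdb1 (SE over 8 libraries each), a ratio of 0.574. Of 9428 identifiers with at least 10 CPM on average and a positive slope in both genotypes, 5.06% had a lower ratio, and the median ratio was 0.873. The ratio was 0.708 for Cbx5 and between 0.779 and 0.866 for Suv39h2, Suv39h1, Trim28 and Ehmt2. It was 0.939 for Cbx1, 0.982 for Cbx3 and 1.00 for Ehmt1, the members nearest to 1. These ratios are descriptions with no test. The mean EU time was 30 min, so that the 30 min libraries carry no weight in the slopes, and the ratio of Setdb1 lay between 0.456 without the second CKO library of 60 min and 0.655 without the first. Other ratios also moved with single libraries left out. The range was 0.515 to 0.917 for Suv39h2, 0.570 to 0.940 for Suv39h1 and 0.689 to 1.03 for Cbx1. It was 0.808 to 1.03 for Cbx3 and 0.911 to 1.05 for Ehmt1.

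**Figure D4:**
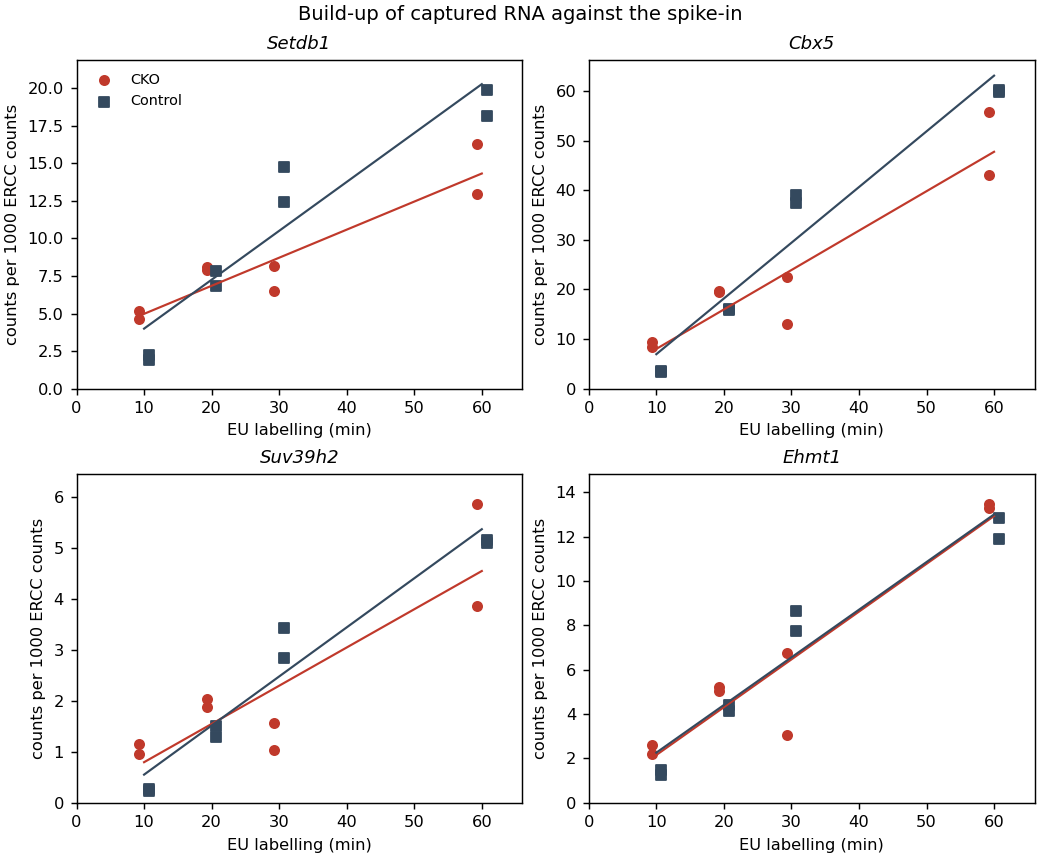
Counts per 1000 ERCC counts (vertical axis, from 0) against minutes of EU labelling (horizontal axis, linear; points are moved slightly sideways to keep the genotypes apart) for Setdb1, Cbx5, Suv39h2 and Ehmt1 in every library, with a straight line fitted to each genotype. Red circles are CKO and dark squares Control libraries. The CKO line of Setdb1 is flatter than the Control line, with a ratio of slopes of 0.574. The lines of Ehmt1 nearly coincide, with a ratio of 1.00. The 30 min libraries carry no weight in these slopes but do move the height of the lines. For Ehmt1 both CKO libraries lie above both Control libraries at 10, 20 and 60 min and below them at 30 min.

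The members did not vary as one group. Over the 12 libraries of 10, 20 and 60 min, the member whose log2 CPM most resembled that of Setdb1 was Ehmt2 (Pearson r = 0.728). Ehmt2 ranked 597 there among the 9483 identifiers of at least 10 CPM. The rank of the closest member ran from 131 for Suv39h1 (Ehmt2, r = 0.701) and 134 for Cbx1 (Ehmt2, r = 0.784) to 2119 for Cbx5 (Suv39h2). The closest identifier to Setdb1 was ENSMUSG00000038225.15 (r = 0.974), and for Cbx5 the closest identifier was ENSMUSG00000030031.14 (r = 0.985); the files pair neither with a name. The closest identifier to Trim28 had r = 0.937, to Cbx1 0.923 and to Cbx3 0.95. Suv39h2 had a negative r with each of the other members but Cbx5, lowest at -0.787 with Ehmt2, and an r of 0.592 with Cbx5. These correlations are across libraries that share genotype and EU time, and are descriptions only.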

How the data were processed

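Nascent RNA was sequenced in 16 libraries, 2 for each combination of 2 genotypes and 4 EU times. The labels call it both total and polyA RNA. The authors deposited unnormalised counts for each gene identifier, made with CASAVA, Trimmomatic 0.38, HISAT2 2.1.0 and HTSeq on mm10, per the submitters' processing notes. No source used here gives the annotation release, the counted feature or the strand setting. Symbols come from the identifiers given for the 9 genes. Since no table paired other identifiers with names, Mettl14 itself, markers of cell types and further H3K9 genes were not analysed here. The members and lists were chosen with earlier results of these data known, and all 9 members are named.

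The 54446 mouse identifiers and 92 ERCC species were split, and mouse counts were scaled by TMM and filtered by group with filterByExpr. They were fitted with edgeR 4.0.16 in R 4.3.3 by the robust quasi-likelihood F-test, with genotype added to EU time for the overall difference and a model of 8 group means for the rest. Adjusted p-values are Benjamini-Hochberg values over all identifiers tested, with a threshold of 0.05, and errors are standard errors from the F statistic. The script was tested on simulated data. Alternatives were ERCC totals, median-of-ratios factors or plain totals as scaling, DESeq2 1.42.0, other filters, a replicate block, and fits without the 30 min libraries, without single libraries or of 1 EU time. The direct comparison of the 10 to 60 min changes, the slopes' comparison with all identifiers and ERCC scaling without 30 min were added after seeing the data. Replicates of a group differed by more than sampling noise in every group (chi-square per degree of freedom 3.59 to 23.5). Deviations from the group means of libraries with the same replicate number correlated between genotypes at -0.0117 to 0.0256, so no shared deviation was seen. This cannot tell whether libraries with the same number were grown or prepared together.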

Additional observations from a re-analysis of the deposited data

Results flagged for a closer look

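The difference between CKO and Control changed with EU time in 7 of the 9 genes when all 16 libraries were fitted, by edgeR's interaction test. By the same test 22.7% of all identifiers tested and 46.3% of those of at least 10 CPM passed. The adjusted p was 2.44e-07 for Cbx5, 3.83e-07 for Cbx1, 2.99e-05 for Trim28, 8.10e-05 for Suv39h2, 9.15e-05 for Cbx3, 0.0189 for Ehmt1 and 0.0191 for Setdb1. None of these 7 genes passed without the 30 min libraries, where 10.9% of identifiers of at least 10 CPM did. Their adjusted p by edgeR lay there between 0.0678 for Suv39h2 and 0.399 for Trim28. Ehmt2 and Suv39h1 passed in neither fit. With ERCC totals as library sizes edgeR called all 9 in both sets of libraries, as it did most identifiers of at least 10 CPM (81.7% with all libraries and 85.4% without those of 30 min). The 2 CKO libraries of 30 min were the shallowest and the richest in detected identifiers, and the part of those features in these results was not tested.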

How the results depend on the processing

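With 2 libraries a group, a difference that missed the threshold is not shown to be absent. Whether the number of libraries or their depth limits these results more was not tested. Shares of all identifiers were given above for most counts from TMM and ERCC scaling, with and without the 30 min libraries. The other settings below carry no such share. A changed count of members there was not compared with the change among all identifiers. Of the 9 members, 2 were called over all EU times in the reported fit, 0 with ERCC scaling, 4 with DESeq2, 5 with no filter on low counts, 1 without the 30 min libraries and 2 to 3 with each library left out in turn. At 10 min the 3 calls became 9 with ERCC scaling with or without the 30 min libraries, 5 without 30 min, 1 in the 4 libraries of 10 min alone, and 1 to 4 with a library left out. At 20 min the count was 2 in the 4 libraries of that time alone (Setdb1 and Cbx3) and 0 to 1 with a library left out, the 1 being Cbx3 without either CKO library of 30 min. At 30 min it was 7 to 8 in every setting that kept the 30 min libraries but the replicate block, where it was 9. At 60 min the 2 calls became 0 with ERCC scaling with or without 30 min, where 0.127% and 3.1% of identifiers of at least 10 CPM were called. The count at 60 min lay between 0 and 2 with a library left out. The interaction count was 9 with ERCC scaling with or without 30 min, 0 without the 30 min libraries and 5 to 7 with a library left out. For the change between 10 and 60 min, CKO minus Control, the 0 calls became 7 with ERCC scaling and 9 with it without 30 min, 1 with median-of-ratios factors, 2 with DESeq2, 1 with no filter, 2 with the stricter filter, 2 with the block (Suv39h2 and Cbx3), 1 without 30 min and 0 to 4 with a library left out. Between 10 and 60 min, 9 members changed in CKO and 9 in Control with ERCC scaling, with or without 30 min, and with a library left out 2 to 4 did in CKO and 2 to 3 in Control. With the replicate block the counts were 2 over all EU times, 3 at 10 min, 0 at 20 min, 9 at 30 min, 2 at 60 min, 7 for the interaction, 4 between 10 and 60 min in CKO and 2 in Control. The block ended no call among the values reported, and the difference of changes of Suv39h2 passed with it (adjusted p = 0.0485 by edgeR). The overall log2 difference turned positive with ERCC scaling in all 16 libraries and, given second, without 30 min: Setdb1 0.016 and 0.32, Trim28 0.19 and 0.52, Ehmt1 0.12 and 0.40, Ehmt2 0.19 and 0.43, Suv39h1 0.30 and 0.53, Suv39h2 0.30 and 0.81, Cbx5 0.061 and 0.45, Cbx1 0.13 and 0.55. Cbx3 turned only without 30 min, at 0.31. Suv39h2 also turned with TMM, to 0.21 without the 30 min libraries and 0.0075 without the first CKO library of 30 min, the end of a range that began at -0.22 with a library left out. At 10 min Ehmt1 turned to 0.82 and Cbx3 to 0.84 with ERCC scaling, with or without 30 min, and the change of Setdb1 between 10 and 60 min in CKO turned to 1.58 in both. These turns follow the shift of all identifiers under that scaling. Cbx5 over all EU times, at an adjusted p of 0.0521, passed under other scalings, filters and tools, for example at 0.0288 with median-of-ratios factors by edgeR. The cause of the other changes was not tested.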
